A study of Mus musculus with 8 samples.

Results

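The proteasome genes described here encode the subunits of the core particle, the regulatory particle and the activators of the proteasome. They were taken as the probe sets annotated to exactly 1 gene symbol whose symbol ran from Psma1 to Psma7, Psmb1 to Psmb10, Psmc1 to Psmc6, Psmd1 to Psmd14 or Psme1 to Psme4, with the probe set of the highest mean over all 8 arrays for each gene. All 41 genes were measured, by 47 probe sets, out of 19938 genes and 35556 probe sets in all. The tissue was soleus, a calf muscle rich in slow fibres, taken in the basal state from male mice aged 5 months under sodium pentobarbital. Of the 8 mice, 4 were Ts65Dn, which carry an extra marker chromosome and so have the distal end of chromosome 16 and the centromeric end of chromosome 17 in 3 copies in every tissue, and 4 were wild-type (WT) colony mice of the labelled strain B6EiC3SnF1/J, a mix of B6 and C3H background. Each mouse gave 1 Affymetrix array of total RNA, and precision is limited by how many arrays there were.

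The proteasome degrades proteins that carry ubiquitin chains. Its core particle is a barrel in which outer rings of alpha subunits gate the entrance and inner rings of beta subunits cut the substrate. The regulatory particle caps the barrel, and its base holds a ring of ATPases that unfold the substrate while its lid removes the ubiquitin chain. In muscle this system is known for the breakdown of contractile proteins during disuse and wasting. Interferon replaces the constitutive catalytic subunits by inducible ones, which form the immunoproteasome and make peptides for antigen presentation.

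The 41 genes were split into 7 core alpha, 7 core beta, 3 immunoproteasome (Psmb8 to Psmb10), 9 base, 8 lid and 4 activator genes. Psmd5, Psmd9 and Psmd10, the other 3, are chaperones of base assembly that leave the finished particle, and were kept as a group of their own. None of the 41 genes lay in the segments present in 3 copies. Of the members, 1 (Psmd2) lies on chromosome 16 and 3 (Psmb1, Psmb8 and Psmb9) lie on chromosome 17, outside those segments.

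The arrays of the groups differed in their overall distribution. Array medians ran from 4.23 to 4.29 in Ts65Dn and from 4.37 to 4.56 in WT on the log2 scale, and interquartile ranges from 3.01 to 3.12 in Ts65Dn and from 2.62 to 2.93 in WT, with the lowest interquartile ranges in WT arrays 2 and 3. Over all 19938 genes the median log2 fold change of Ts65Dn over WT was -0.10, and over the 3346 genes outside the gene lists whose mean level lay in the central range of the proteasome genes, 6.72 to 11.01, it was 0.27. For this reason 2 further values are given beside the log2 fold change. The level-matched fold change takes from each value the array's own median deviation of the 100 genes nearest in mean level. The other leaves out WT arrays 2 and 3. Muscle genes were high, as the 14 examined had mean levels of 10.05 to 12.50. They included slow-fibre genes such as Myh7, Tnnt1 and Tnni1, and also genes not particular to slow fibres, such as Acta1, Ckm and Myh2.

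Most proteasome genes were measured slightly higher in Ts65Dn soleus, and few passed the test. A positive log2 fold change was found for 34 of 41 genes, with a median of 0.16. Genes were called by limma, in a two-sided test, where the p-value adjusted by Benjamini-Hochberg across the 19938 genes was under 0.05. The test called 2 genes higher, Psmd11 and Psmc4, and 0 lower. That is 4.88% of the members called higher, beside 2.32% of all genes and 5.38% of the genes in the same range of level. Called lower were 2.94% of all genes and 0.39% of the genes in the same range of level. At an unadjusted limma p under 0.05, 10 members were higher and 0 lower, which is 24.4% higher. That share was 12.3% for all genes and 32.3% for genes in the same range of level, above that of the members. Genes in that range had a lower mean level than the members, 8.28 to 8.29 against 9.35 to 9.42 over the Ts65Dn arrays. They have the range of the members but not their mix of levels, here and below. The part of this mismatch in the difference between the shares was not tested. Every Ts65Dn array lay above every WT array for 7 members (Psma5, Psmc1, Psmc2, Psmc4, Psmd7, Psmd11 and Psmd12), or 17.1%, beside 6.81% of all genes and 19.9% of genes in the same range of level. Every Ts65Dn array lay below every WT array for 0 members, beside 15.9% of all genes and 1.61% of genes in the same range of level.

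The share of positive fold changes among genes in the same range of level was 81.8%, against 82.9% of the members, so that the shares were close. With level matching, 24 members were positive and the median was 0.04, beside 0.02 over genes in the same range of level. Without WT arrays 2 and 3, 33 were positive and the median was 0.05, beside -0.05 over all genes and 0.10 over genes in the same range of level. With each array centred on its median, 39 were positive and the median was 0.37, beside 0.10 over all genes and 0.47 over genes in the same range of level, of which 94.7% were positive. Over the fit reported here and its 19 alternatives, 18 members were positive in every setting and 2, Psmb8 and Psme1, were negative in every setting. The size of the difference thus depended on the scaling and on 2 WT arrays.

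**Figure D1:**
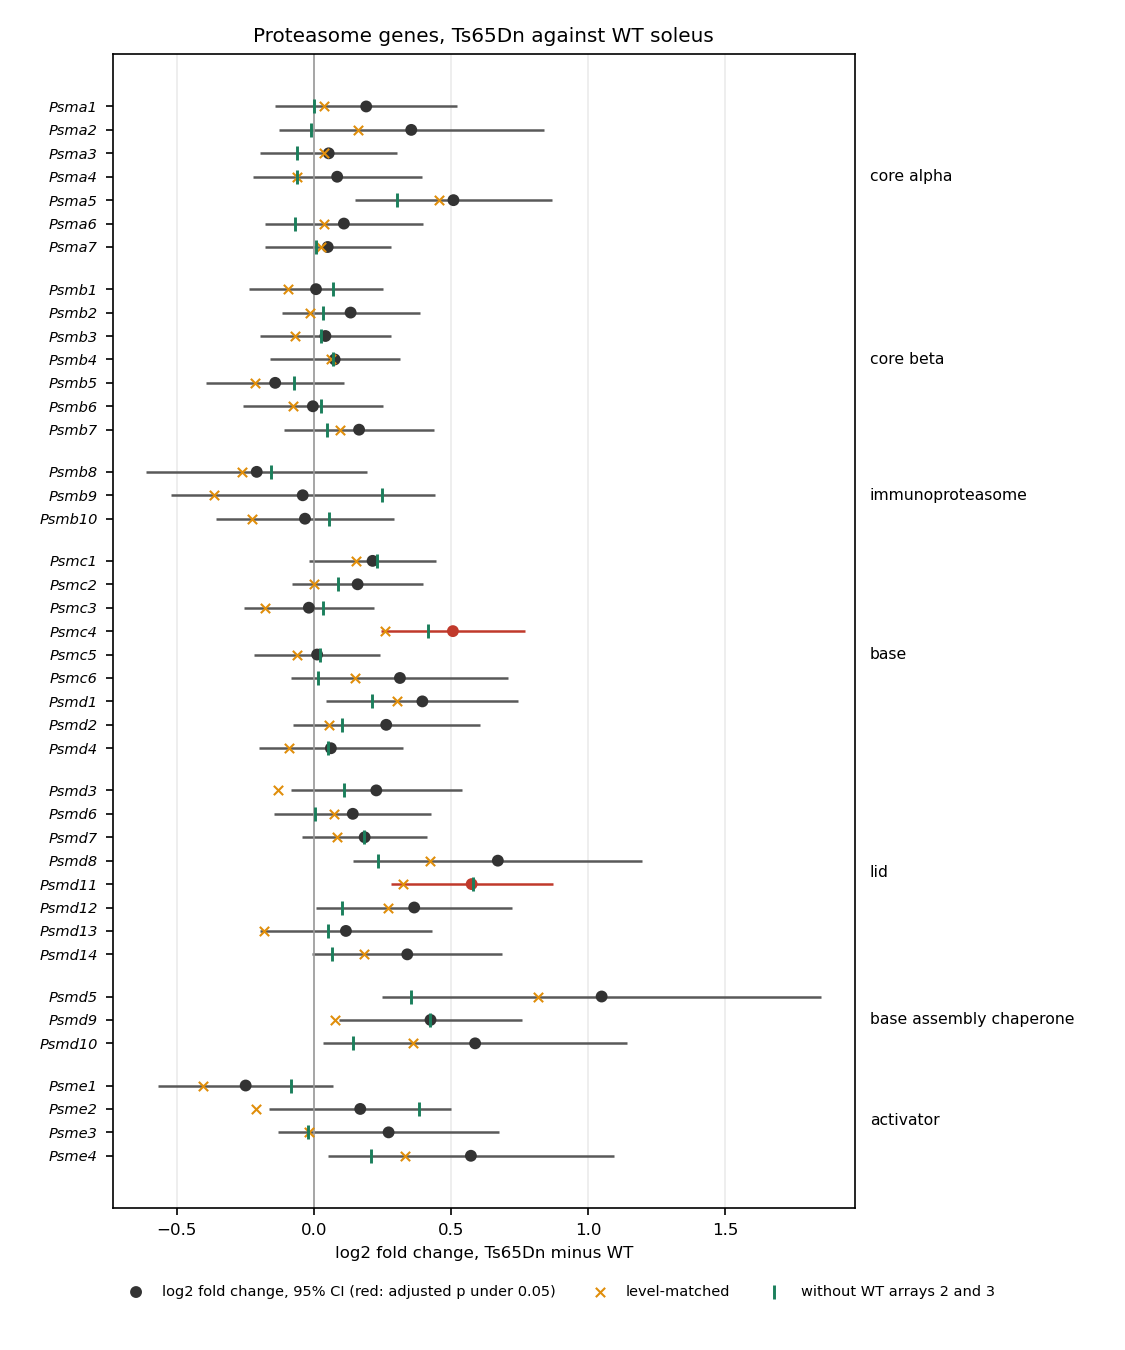
Log2 fold change of Ts65Dn over WT for each of the 41 proteasome genes, by particle, with its 95% confidence interval from limma. The 2 called genes, Psmd11 and Psmc4, are red, crosses are level-matched values and green ticks are values without WT arrays 2 and 3, which lie closer to 0 for most genes of the lid and of the core alpha group.

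Psmd11, a scaffold subunit of the lid, was at 9.30, 9.03, 8.81 and 9.09 in Ts65Dn soleus, against 8.50, 8.64, 8.33 and 8.44 in WT soleus (log2 values of replicates 1 to 4). The groups did not overlap, and the lowest Ts65Dn array lay above the highest WT array. Its log2 fold change was 0.58 (95% confidence interval 0.28 to 0.87, limma adjusted p = 0.0466), a fold of 1.49. The value was 0.58 without WT arrays 2 and 3 and 0.32 with level matching, where the limma adjusted p was 0.228.

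Psmc4, an ATPase of the base, was at 8.83, 9.15, 8.98 and 9.02 in Ts65Dn soleus, against 8.53, 8.39, 8.40 and 8.63 in WT soleus. Its groups did not overlap either. The log2 fold change was 0.51 (95% confidence interval 0.24 to 0.77, limma adjusted p = 0.0469), a fold of 1.42. It was 0.41 without WT arrays 2 and 3 and 0.26 with level matching, where the limma adjusted p was 0.230. The smallest adjusted p over all 19938 genes was 0.0449, so that both calls lay close to the threshold. Each call was lost in 13 of 19 alternatives, with limma adjusted p-values of 0.0284 to 0.311 for Psmd11 and 0.0294 to 0.373 for Psmc4, and both were lost when any 1 Ts65Dn array or WT array 2 or 3 was left out.

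Markers of other cell types differed between the groups as well. The summed log2 level of 7 endothelial markers was 40.3 to 43.1 in Ts65Dn and 36.2 to 39.6 in WT, and that of 5 fibroblast markers was 34.4 to 35.4 in Ts65Dn and 32.9 to 33.8 in WT. Of the 7 measured lymphocyte markers the sum was 23.0 to 24.6 in Ts65Dn and 25.4 to 27.7 in WT. These lymphocyte markers had low mean levels, 2.68 to 4.97. Their median log2 fold change of -0.47 was -0.20 with level matching and -0.19 without WT arrays 2 and 3. In the same order, the medians were 0.58, 0.42 and 0.33 for the endothelial list and 0.35, 0.27 and 0.09 for the fibroblast list. No marker was listed at 0, and limma called 2 endothelial (Kdr and Emcn), 1 fibroblast (Pdgfra) and 0 lymphocyte markers, beside 2.32% of all genes called higher and 2.94% called lower. Not all markers of a list went one way: among the endothelial markers Cldn5 (-0.30) and Vwf (-0.12), and among the fibroblast markers Col1a1 (-0.35) and Col3a1 (-0.06), had negative log2 fold changes that did not pass. The ranges overlapped for 5 adipocyte markers (29.0 to 32.0 in Ts65Dn, 30.6 to 33.1 in WT) and for the 14 muscle genes (162.2 to 164.0 in Ts65Dn, 160.9 to 163.2 in WT). In whole muscle, fewer cells of a type and less RNA per cell cannot be told apart, and the part of other cell types in the proteasome values was not tested.

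The sequences before the starts of the 2 called genes are shown because these are the members that passed the test. They are the 250 bases before the start, from the RefSeq promoter table of GRCm38.p6, which held 35 of the 41 members, and GC boxes (GGGCGG on either strand) are in capitals. Psmd11 is at chr11:80428365-80428614, plus strand, and Psmc4 at chr7:28050093-28050342, minus strand.
Psmd11: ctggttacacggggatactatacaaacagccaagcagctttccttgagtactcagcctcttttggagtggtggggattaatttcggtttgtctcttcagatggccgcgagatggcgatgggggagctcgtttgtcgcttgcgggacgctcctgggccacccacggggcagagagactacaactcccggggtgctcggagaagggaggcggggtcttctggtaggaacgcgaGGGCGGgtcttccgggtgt
Psmc4: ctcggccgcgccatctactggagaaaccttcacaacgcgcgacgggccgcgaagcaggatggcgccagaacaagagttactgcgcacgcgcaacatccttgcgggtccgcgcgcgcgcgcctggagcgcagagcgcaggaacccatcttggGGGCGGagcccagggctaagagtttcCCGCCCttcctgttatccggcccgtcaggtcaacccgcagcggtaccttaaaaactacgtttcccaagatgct
The Psmd11 window holds 1 GC box and the Psmc4 window 2. A GC box was found in 21 of the 35 members, against 35.4% of the 27025 genes with a promoter in the table, and a CCAAT box (CCAAT, either strand) in 13 of 35, against 37.5% of those genes. Neither called gene had a CCAAT box in this window. These matches describe the letters only.

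**Figure D2:**
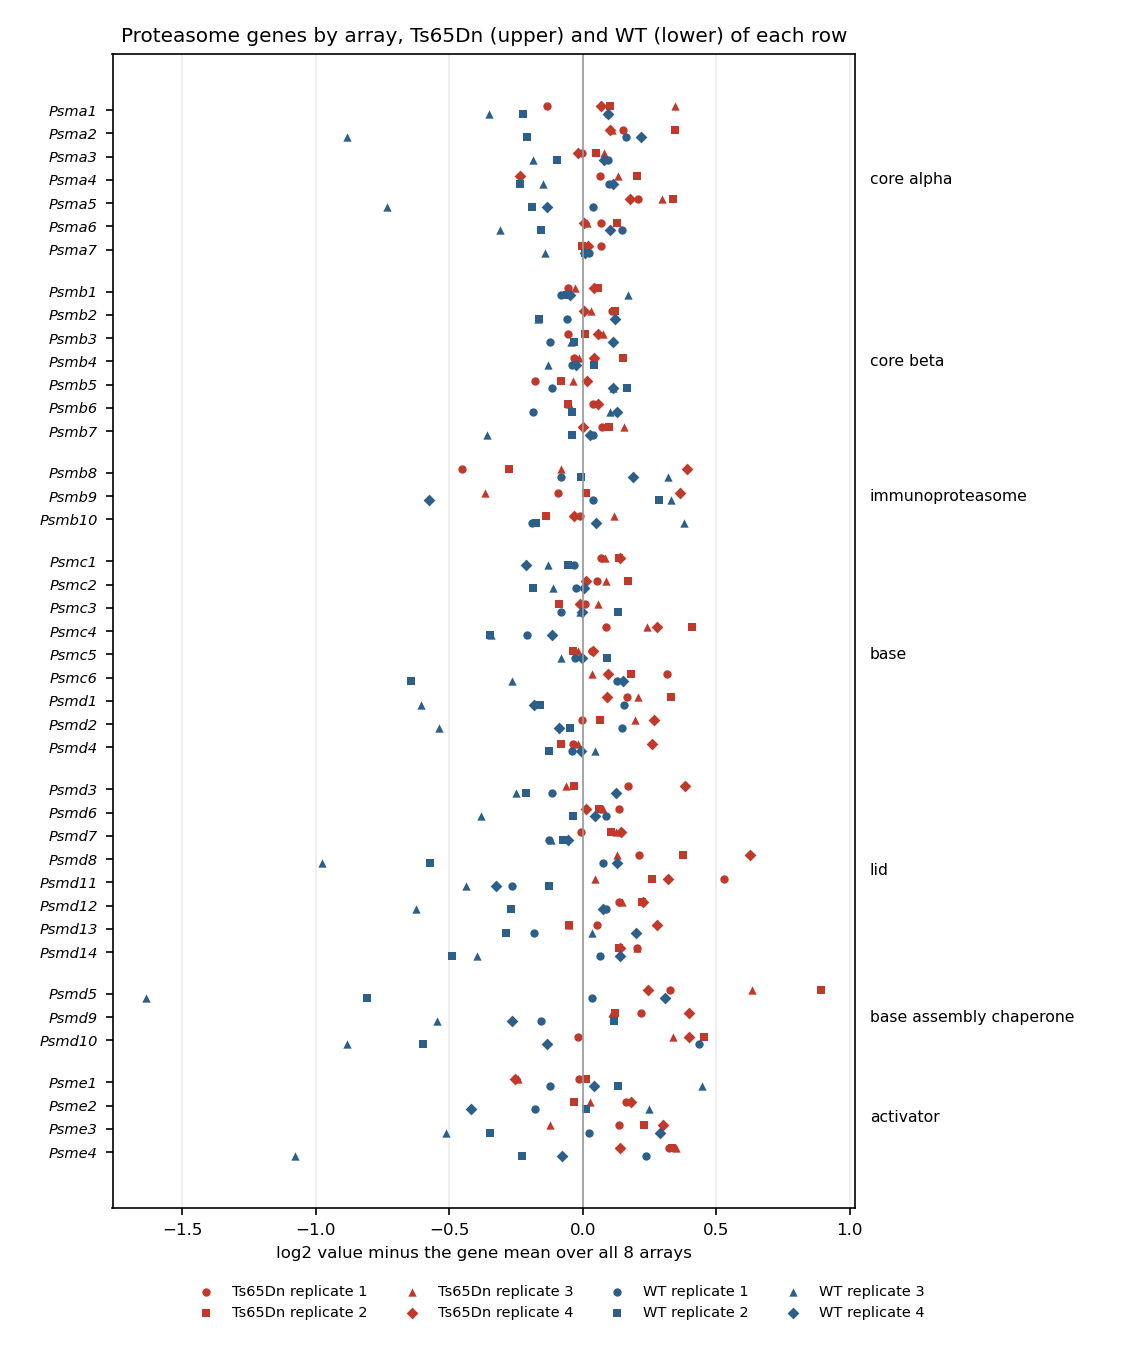
Log2 value of each of the 41 proteasome genes in each array, minus the mean of that gene over all 8 arrays, by particle. Red symbols are the 4 Ts65Dn arrays and blue symbols the 4 WT arrays, with 1 shape per replicate number, and WT array 3 (blue triangles) is the lowest array for 22 genes.

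WT arrays 2 and 3 held the lowest value for 28 of the 41 genes, 22 in array 3 and 6 in array 2, or 68.3%. For genes in the same range of level this share was 75.2%, and for all genes it was 28.5%. The median deviation of the 41 genes from their means over all arrays was 0.07, 0.11, 0.07 and 0.10 in Ts65Dn arrays 1 to 4, against -0.02, -0.13, -0.19 and 0.04 in WT arrays 1 to 4. WT arrays 1 and 4 thus lay much closer to the Ts65Dn arrays than WT arrays 2 and 3 did. The spread within the group was larger in WT for 33 of 41 genes, with a median SD of 0.10 in Ts65Dn and 0.21 in WT, beside 82.4% of the genes in the same range of level.

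The particles were not alike in this respect. By array, the median deviation of the lid genes was 0.15, 0.12, 0.10 and 0.25 in Ts65Dn, against -0.03, -0.24, -0.39 and 0.10 in WT. For the core beta genes it was -0.03, 0.06, -0.01 and 0.04 in Ts65Dn, against -0.08, -0.04, -0.04 and 0.11 in WT. The low values of WT arrays 2 and 3 were therefore present in the lid and were hardly seen in the median of the core beta group. Of the 7 core beta genes, 3 still had their lowest value in WT array 3, Psmb7 among them. The low values were not particular to the lid. In WT arrays 2 and 3 the median deviation was -0.20 and -0.35 over genes in the same range of level. For the core alpha genes it was -0.19 and -0.31. The base genes lay at 0.05 to 0.14 in Ts65Dn and -0.13 to -0.01 in WT. With level matching, the median log2 fold change was 0.04 for core alpha, -0.07 for core beta, 0.05 for base and 0.14 for lid genes. It was -0.26 for immunoproteasome, 0.36 for base assembly chaperone and -0.11 for activator genes. The differences between particles were not tested.

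**Figure D3:**
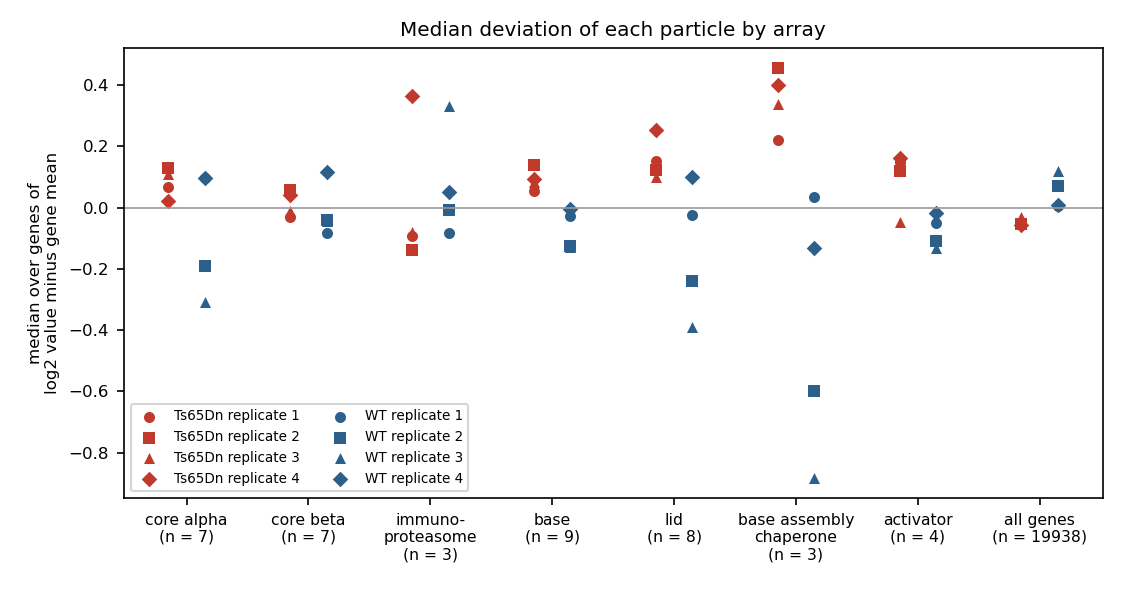
Median over the genes of each particle of the log2 value minus the gene mean, for each of the 4 Ts65Dn arrays (red) and the 4 WT arrays (blue), with all 19938 genes at the right. WT arrays 2 and 3 lie below the others for core alpha, base, lid, base assembly chaperone and activator genes, and the core beta group stays between -0.08 and 0.11.

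The core alpha genes form the outer rings and the gate of the barrel. All 7 had a positive log2 fold change, from 0.05 to 0.51 with a median of 0.11, and 0 were called. Psma5 stood above the others of this group, at 10.47, 10.60, 10.56 and 10.44 in Ts65Dn soleus, against 10.30, 10.07, 9.53 and 10.13 in WT soleus. Each Ts65Dn array lay above each WT array, and WT array 3 was the lowest by far. Its log2 fold change was 0.51 (limma adjusted p = 0.0689), 0.46 with level matching and 0.30 without WT arrays 2 and 3. A further Psma5 probe set gave 0.52.

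Of the remaining alpha genes, Psma2 had a log2 fold change of 0.36, which was -0.01 without WT arrays 2 and 3, and Psma1 one of 0.19, which was 0.00072. Psma4 (0.08), Psma6 (0.11) and Psma3 (0.05) turned to -0.06, -0.07 and -0.06. Psma7 was at 11.33, 11.26, 11.28 and 11.29 in Ts65Dn soleus, against 11.29, 11.28, 11.13 and 11.28 in WT soleus, and its log2 fold change of 0.05 was the smallest of the group. WT array 3 was the lowest array, and the other 7 lay close together. Without the 2 WT arrays, the median of the group was -0.01. The 3 probe sets of Psma3 gave values of 0.0015 to 0.06.

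The core beta genes form the inner rings. Their log2 fold changes ran from -0.14 to 0.16 with a median of 0.04, and limma adjusted p-values from 0.349 to 0.984. No core beta gene passed. The structural subunits Psmb1 (0.01), Psmb2 (0.13), Psmb3 (0.04) and Psmb4 (0.08) all lay within these limits. A further Psmb3 probe set gave 0.35, so the 2 probe sets of this gene disagreed in size.

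The constitutive catalytic subunits are Psmb6, with caspase-like activity, Psmb7, with trypsin-like activity, and Psmb5, with chymotrypsin-like activity. Psmb6 was at 11.05, 10.96, 10.96 and 11.07 in Ts65Dn soleus, against 10.83, 10.97, 11.12 and 11.14 in WT soleus, which gave -0.0040 on the log2 scale (95% confidence interval -0.26 to 0.25, limma adjusted p = 0.984). Its Ts65Dn arrays all fell inside the WT range. Psmb7 was at 10.68, 10.70, 10.76 and 10.61 in Ts65Dn soleus, against 10.64, 10.56, 10.25 and 10.63 in WT soleus, which gave 0.16 on the log2 scale (limma adjusted p = 0.349). Here 3 of the 4 Ts65Dn arrays lay above all WT arrays. Psmb5 was at 10.51, 10.61, 10.65 and 10.71 in Ts65Dn soleus, against 10.58, 10.86, 10.81 and 10.81 in WT soleus, which gave -0.14 on the log2 scale (limma adjusted p = 0.381). This was the lowest value of the group, and the groups overlapped. On the deposited scale, the intervals for Psmb6 and Psmb5 reach 0.25 and 0.11 upward. These limits do not cover the choice of scaling. With arrays centred the 2 log2 fold changes were 0.20 and 0.06, and with level matching -0.08 and -0.21.

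None of the 3 immunoproteasome subunits passed the test, and all 3 log2 fold changes were slightly negative. Psmb9, the inducible counterpart of Psmb6, was at 6.49, 6.60, 6.22 and 6.95 in Ts65Dn soleus, against 6.62, 6.87, 6.92 and 6.01 in WT soleus, with a log2 fold change of -0.04 (95% confidence interval -0.52 to 0.44, limma adjusted p = 0.904). Psmb10, the counterpart of Psmb7, was at 6.22, 6.09, 6.34 and 6.20 in Ts65Dn soleus, against 6.04, 6.05, 6.61 and 6.28 in WT soleus, with -0.03 (-0.36 to 0.29, limma adjusted p = 0.886). Psmb8, the counterpart of Psmb5, was at 5.26, 5.44, 5.63 and 6.10 in Ts65Dn soleus, against 5.63, 5.70, 6.03 and 5.90 in WT soleus, with -0.21 (-0.61 to 0.19, limma adjusted p = 0.418). The groups overlapped for all 3 genes, and Psmb8 and Psmb9 were highest among the Ts65Dn arrays in array 4.

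The summed log2 level of the 16 macrophage markers was also highest in Ts65Dn array 4, at 86.9, with 78.0 to 81.1 in the other Ts65Dn arrays and 76.8 to 79.7 in WT arrays. Its part in the Psmb8 and Psmb9 values was not tested. Limma called 1 of these 16 markers higher, Cd68, beside 2.32% of all genes. The list had a median log2 fold change of 0.06 with 10 of 16 positive. The median was 0.21 with level matching, where 15 were positive, 0.26 with arrays centred and 0.15 without WT arrays 2 and 3. The direction of Psmb9 and Psmb10 was not stable, since without WT arrays 2 and 3 their log2 fold changes were 0.25 and 0.05, while level matching gave -0.36 and -0.22, and centring on the array median 0.16 and 0.17.

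Genes of interferon signalling and antigen processing had log2 fold changes in both directions. Of 9 measured of 12 listed, limma called 0 higher and 2 lower, beside 2.94% of all genes called lower, and the median log2 fold change was -0.27. At an unadjusted limma p under 0.05, 2 were higher and 4 lower, beside 12.3% of all genes higher and 22.6% lower. The median turned sign to 0.016 with level matching, where 5 of 9 were positive, and was -0.07 with arrays centred and -0.12 without WT arrays 2 and 3. Nlrc5, a transactivator of MHC class I genes, was at 7.67, 7.58, 7.92 and 7.47 in Ts65Dn soleus, against 7.99, 8.62, 8.54 and 8.20 in WT soleus. Its Ts65Dn arrays all lay below the WT arrays, with a value of -0.68 on the log2 scale (limma adjusted p = 0.0475), -0.93 with level matching and -0.44 without WT arrays 2 and 3. Nlrc5 had 19 probe sets, and this value is that of the 1 with the highest mean. Over its 19 alternatives, among them the mean of all its probe sets, the log2 fold change ran from -0.93 to -0.39. Tap1, a subunit of the peptide transporter that takes up the products of the immunoproteasome, was at 4.44, 3.97, 4.32 and 4.40 in Ts65Dn soleus, against 4.90, 4.84, 4.72 and 4.82 in WT soleus. This gene also did not overlap between the groups and fell by 0.53 on the log2 scale (limma adjusted p = 0.0475), with -0.26 under level matching and -0.58 without WT arrays 2 and 3. Its mean level was low, at 4.55, and every Ts65Dn array lay below every WT array for 15.9% of all genes. Both calls were lost in most alternatives, Nlrc5 in 17 of 19 and Tap1 in 14 of 18, with limma adjusted p-values up to 0.269 and 0.377. The peptide-trimming enzyme Erap1 (0.63) and the MHC class I light chain B2m (0.29) were measured higher without passing (limma adjusted p = 0.0826 and 0.0968).

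**Figure D4:**
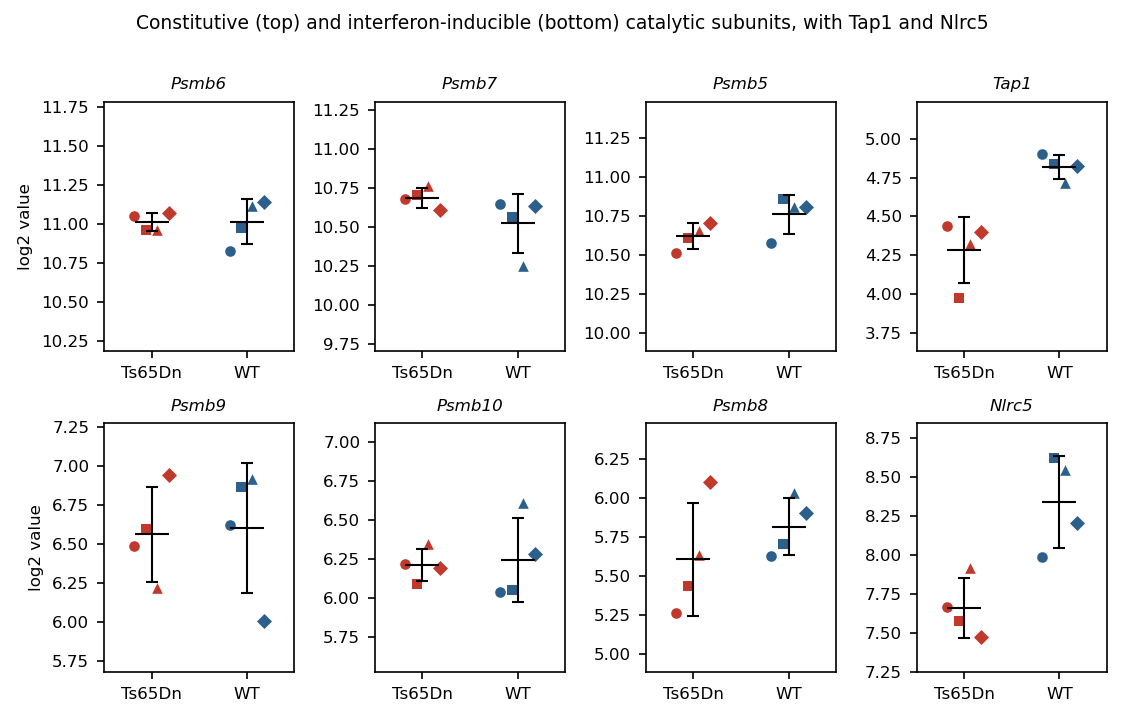
Log2 values by array of the constitutive catalytic subunits Psmb6, Psmb7 and Psmb5 (top) above their inducible counterparts Psmb9, Psmb10 and Psmb8 (bottom), with Tap1 and Nlrc5 at the right. Points are arrays, with circle, square, triangle and diamond for replicates 1 to 4, bars are the mean ± SD (n = 4), and the groups overlap for each subunit but not for Tap1 and Nlrc5.

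Psmb9 and Tap1 are divergent neighbours, and the sequence between their starts is shown because 1 of the pair was called and the other was not. It has 225 bases in RefSeq GRCm38.p6, at chr17:34187331-34187555, plus strand, read towards Tap1. A CCAAT box and a GC box on the opposite strand are in capitals.
Psmb9-Tap1: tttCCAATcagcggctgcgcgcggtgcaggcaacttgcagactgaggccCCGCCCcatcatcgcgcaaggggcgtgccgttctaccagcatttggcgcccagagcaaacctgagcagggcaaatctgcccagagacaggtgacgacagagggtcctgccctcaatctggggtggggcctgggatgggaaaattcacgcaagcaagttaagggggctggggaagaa
Over this shared interval, Tap1 had a log2 fold change of -0.53 and Psmb9 one of -0.04, and the difference between them was not tested. The 2 genes differed in mean level, 4.55 for Tap1 and 6.58 for Psmb9. With level matching the values were -0.26 for Tap1 and -0.36 for Psmb9. A gamma-activated site, TTCNNNGAA, was found in the 250-base window of 1 of the 35 members, Psmb8, against 8.13% of all genes in the table. An interferon-stimulated response element core was found on either strand in 3 (Psmb3, Psmd4 and Psmd9), against 3.46%. The Psmb8 match is shown in capitals with 10 bases on either side, at chr17:34198088-34198116, plus strand.
Psmb8: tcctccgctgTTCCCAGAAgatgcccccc

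The base holds the ATPases Psmc1 to Psmc6 and the large subunits Psmd1 and Psmd2, with Psmd4 as a ubiquitin receptor. Of the 9 genes, 8 had a positive log2 fold change, the median was 0.21, and Psmc4 was the 1 called. Genes in the same range of level had a median of 0.27. With level matching the base median was 0.05, and 6 of 9 genes were positive. The groups did not overlap for Psmc1, at 10.63, 10.70, 10.65 and 10.70 in Ts65Dn soleus, against 10.53, 10.51, 10.43 and 10.35 in WT soleus. That difference was 0.21 on the log2 scale (limma adjusted p = 0.169), and it was 0.23 without WT arrays 2 and 3. Psmc2 also did not overlap, with 0.16 (limma adjusted p = 0.299) and a level-matched value of 0.00079; its highest WT and lowest Ts65Dn arrays were both at 9.42.

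The scaffold subunit Psmd1 differed by 0.40 on the log2 scale (limma adjusted p = 0.110) and Psmd2 by 0.26. Psmc6 was at 0.31, and 0.02 without WT arrays 2 and 3. The base genes Psmc3, Psmc5 and Psmd4 had log2 fold changes of -0.02, 0.01 and 0.06. Psmc3 had the lowest value of the base, at 9.61, 9.52, 9.66 and 9.60 in Ts65Dn soleus, against 9.52, 9.74, 9.60 and 9.60 in WT soleus. For Psmc3, 3 of the 4 Ts65Dn arrays fell inside the WT range. The ATPases thus ranged from a log2 fold change near 0 to a fold of 1.42, within 1 ring.

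In the lid, all 8 genes had a positive log2 fold change, from 0.12 to 0.67 with a median of 0.28, and Psmd11 was called. Genes in the same range of level had a median of 0.27, with 81.8% positive. With level matching the lid median was 0.14, and 6 of 8 genes were positive. Psmd8 had the largest value, 0.67 (limma adjusted p = 0.0850), at 9.35, 9.52, 9.27 and 9.77 in Ts65Dn soleus, against 9.22, 8.57, 8.17 and 9.27 in WT soleus. WT arrays 2 and 3 lay far below the other 6 arrays, and without them the value was 0.23. Psmd12, a scaffold subunit, was at 10.18, 10.27, 10.19 and 10.27 in Ts65Dn soleus, against 10.13, 9.77, 9.42 and 10.12 in WT soleus. Its groups did not overlap, but the highest WT array was close to the lowest Ts65Dn array, and the log2 fold change of 0.37 (limma adjusted p = 0.138) was 0.10 without WT arrays 2 and 3.

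Psmd14, the deubiquitinase of the lid, had a log2 fold change of 0.34 and its partner Psmd7 one of 0.19 (limma adjusted p = 0.148 and 0.218). Without WT arrays 2 and 3 these were 0.07 and 0.18, so that the larger of the 2 shrank and the other kept its size. Psmd7 had a small spread in both groups, at 10.04 ± 0.07 in Ts65Dn and 9.85 ± 0.04 in WT (SD, n = 4 each). Psmd3 (0.23) and Psmd6 (0.14) did not pass. Psmd13 had the lowest value of the lid, at 7.94, 7.83, 7.84 and 8.16 in Ts65Dn soleus, against 7.70, 7.60, 7.92 and 8.08 in WT soleus. That was a log2 fold change of 0.12 with groups that overlapped.

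The 3 chaperones of base assembly had larger log2 fold changes than most subunits, but none passed. Psmd5 was at 6.64, 7.21, 6.95 and 6.56 in Ts65Dn soleus, against 6.35, 5.51, 4.68 and 6.62 in WT soleus. All 4 Ts65Dn arrays and WT arrays 1 and 4 lay between 6.35 and 7.21, and WT arrays 2 and 3 lay below. Its log2 fold change was 1.05 (95% confidence interval 0.25 to 1.85, limma adjusted p = 0.0808), and 0.35 without those 2 arrays. Psmd10, also known as an oncoprotein under the name gankyrin, had 0.59 (limma adjusted p = 0.127), which was 0.14 without them.

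Psmd9 was at 6.97, 6.87, 6.86 and 7.15 in Ts65Dn soleus, against 6.59, 6.87, 6.20 and 6.49 in WT soleus. Here 3 Ts65Dn arrays lay above all WT arrays, and WT array 2 was at the level of the lower Ts65Dn arrays. The log2 fold change was 0.43 (limma adjusted p = 0.0856) and did not shrink without WT arrays 2 and 3 (0.42), while level matching brought it to 0.08.

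**Figure D5:**
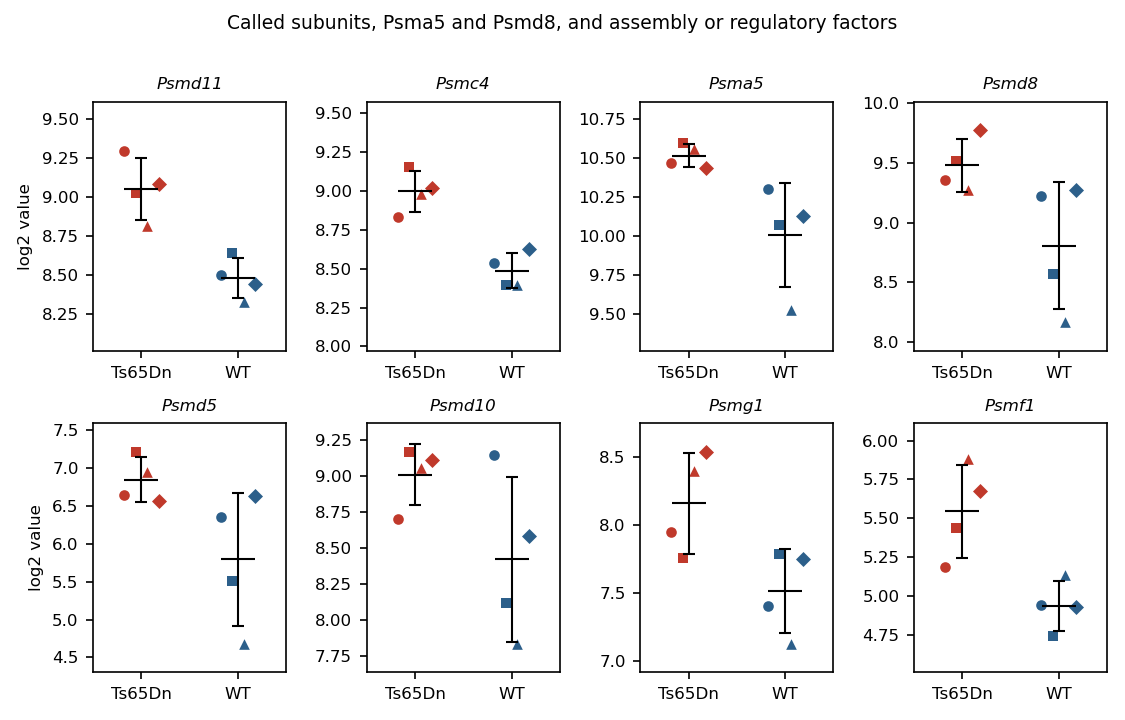
Log2 values by array of the called genes Psmd11 and Psmc4, of Psma5 and Psmd8, and of the assembly or regulatory factors Psmd5, Psmd10, Psmg1 and Psmf1. Points are arrays, with circle, square, triangle and diamond for replicates 1 to 4, and bars are the mean ± SD (n = 4). WT replicates 2 and 3 are the lowest WT arrays for Psmc4, Psma5, Psmd8, Psmd5 and Psmd10, but not for Psmg1 or Psmf1.

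The activators open the gate of the core particle without ATP. Psme1 and Psme2 together form the interferon-inducible ring. Psme1 was at 9.44, 9.47, 9.21 and 9.20 in Ts65Dn soleus, against 9.33, 9.59, 9.90 and 9.50 in WT soleus, which gave -0.25 on the log2 scale (limma adjusted p = 0.233), the lowest of all 41 genes. Its groups overlapped, with WT array 3 the highest array. Psme2 was at 7.53, 7.34, 7.40 and 7.55 in Ts65Dn soleus, against 7.19, 7.38, 7.62 and 6.95 in WT soleus, which gave 0.17 on the log2 scale (limma adjusted p = 0.427). WT array 3 was again the highest array, and the value was 0.38 without WT arrays 2 and 3 and -0.21 with level matching. The partners of this ring had opposite signs, and the difference between them was not tested.

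Psme4, a large single-chain activator found in the nucleus, was at 9.35, 9.37, 9.38 and 9.17 in Ts65Dn soleus, against 9.27, 8.80, 7.95 and 8.95 in WT soleus. WT array 3 lay far below the rest, and 3 Ts65Dn arrays lay above all WT arrays. The log2 fold change was 0.57 (limma adjusted p = 0.117), and 0.21 without WT arrays 2 and 3. Psme3, the nuclear relative of Psme1 and Psme2, had 0.27, which was -0.02 without them.

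Factors that assemble or bind the proteasome were described from a list of 17, of which 15 were measured. Limma called 0 higher and 0 lower, beside 2.32% and 2.94% of all genes. At an unadjusted limma p under 0.05, 6 were higher, or 40.0%. That share was 12.3% for all genes and 32.3% for genes in the level range of the proteasome genes. The median log2 fold change of the list was 0.18, and 0.023 with level matching. Psmg1, a chaperone of the alpha ring, is the 1 proteasome factor of this list that lies in the trisomic segment of chromosome 16. It was at 7.95, 7.75, 8.40 and 8.54 in Ts65Dn soleus, against 7.41, 7.78, 7.13 and 7.75 in WT soleus, so that 3 Ts65Dn arrays lay above all WT arrays. The means were 8.16 ± 0.37 in Ts65Dn and 7.52 ± 0.31 in WT (SD, n = 4 each), a difference of 0.64 on the log2 scale (limma adjusted p = 0.0696), 0.58 without WT arrays 2 and 3 and 0.27 with level matching. Its binding partner Psmg2 is not trisomic and had 0.53 (limma adjusted p = 0.0812).

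Psmf1, an inhibitor of the core particle in biochemical assays, was at 5.19, 5.44, 5.88 and 5.68 in Ts65Dn soleus, against 4.94, 4.74, 5.14 and 4.93 in WT soleus. The groups did not overlap. Its log2 fold change was 0.61 (limma adjusted p = 0.0524), 0.61 without WT arrays 2 and 3 and 0.79 with level matching. Usp14, a deubiquitinase bound to the base, had 0.93 (limma adjusted p = 0.0866), which was 0.27 without WT arrays 2 and 3. Pomp, which matures the beta rings, was at 10.86, 11.01, 10.89 and 10.87 in Ts65Dn soleus, against 10.91, 10.60, 10.95 and 10.80 in WT soleus, with 0.09 (limma adjusted p = 0.577) and groups that overlapped.

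Among 10 measured of 11 listed genes of proteasome transcription, limma called 0, with 2 higher and 1 lower at an unadjusted p under 0.05, beside 12.3% and 22.6% of all genes. Their median was -0.0017, -0.17 with level matching and 0.20 with arrays centred. Nfe2l1, the factor known to raise proteasome genes when the proteasome is inhibited, was at 10.26, 10.21, 10.33 and 10.38 in Ts65Dn soleus, against 10.21, 10.29, 10.22 and 10.26 in WT soleus. Its log2 fold change of 0.05 (95% confidence interval -0.18 to 0.28, limma adjusted p = 0.731) was small, and the groups overlapped. Ngly1, which removes glycans from Nfe2l1, had 0.76 (limma adjusted p = 0.142), and 0.31 without WT arrays 2 and 3. The CCAAT-binding subunits Nfya (-0.42) and Nfyb (0.41) had opposite signs and did not pass (limma adjusted p = 0.0689 and 0.0844).

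Nfe2l1 binds antioxidant response elements, and the matches to that core in proteasome promoters are shown because they are the letters its known sites share. The core TGACNNNGC was searched on both strands of the 250 bases before each start and was found in 5 of the 35 members, against 11.5% of all genes in the table. Each match is in capitals, read on the strand that holds it and cut at the edge of the window, from RefSeq GRCm38.p6. The regions are chr14:54618024-54618052, minus strand for Psmb5, chr11:70525338-70525356, plus strand for Psmb6, chr14:45329587-45329615, minus strand for Psmc6, chr11:107479278-107479299, minus strand for Psmd12 and chr5:123228149-123228177, plus strand for Psmd9.
Psmb5: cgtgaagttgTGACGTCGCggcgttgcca
Psmb6: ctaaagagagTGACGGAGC
Psmc6: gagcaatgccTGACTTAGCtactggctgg
Psmd12: ggggcaaatgTGACACAGCaga
Psmd9: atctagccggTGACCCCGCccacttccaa
The log2 fold changes of these 5 genes were -0.14 for Psmb5, -0.0040 for Psmb6, 0.31 for Psmc6, 0.37 for Psmd12 and 0.43 for Psmd9, so that they spanned the range from lower to higher. Psmd11 and Psmc4, the called genes, held no match in their windows.

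Of 14 measured of 20 listed genes that supply ubiquitin or bring substrates to the proteasome, limma called 1 higher and 0 lower, and 7 were higher at an unadjusted p under 0.05. Over all genes these shares were 2.32% called higher, 2.94% called lower and 12.3% higher at the unadjusted threshold. Over genes in the level range of the proteasome genes they were 5.38%, 0.39% and 32.3%. Uba6, a ubiquitin-activating enzyme, was at 5.44, 4.52, 5.02 and 5.21 in Ts65Dn soleus, against 4.41, 4.01, 3.95 and 4.46 in WT soleus. The groups did not overlap, and the gene was called (0.84 on the log2 scale, limma adjusted p = 0.0475), a call lost in 13 of 18 alternatives with limma adjusted p-values up to 0.305. The shuttle factor Rad23b (0.52) and the Vcp cofactors Nploc4 (0.82) and Ufd1 (0.64) were measured higher without passing (limma adjusted p = 0.0518, 0.0529 and 0.0578). For Uba6 the value was 1.12 with level matching and 0.61 without WT arrays 2 and 3. The list had a median of 0.29, and 0.08 with level matching.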

How the data were processed

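Soleus RNA of 4 Ts65Dn and 4 WT male mice was hybridised, 1 array a mouse, and the sample titles call them biological replicates. The authors deposited log2 values, a scale inferred from their span of 0.67 to 13.14. Expression Console 1.1 of Affymetrix, with RMA, was used by the authors, per the submitters' processing notes. The genome build is not given in the sources used here. Of 35556 probe sets, 21789 carried 1 gene symbol and were kept, with symbols updated by Entrez number from the GRCm38.p6 table of RefSeq; 1621 with several symbols and 12146 with none were not used.

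Ts65Dn was compared with WT over all 19938 genes with limma 3.58.1 (lmFit, eBayes; R 4.3.3) and no covariate. Tested on simulated data for this comparison (19938 genes, 200 changed), it recovered 97% of the genes with a log2 change of 2 and 73% of those with a change of 1. There were 9 false calls. The simulated noise was independent between genes, without the shifts of whole arrays seen here, and no change smaller than 1 was simulated. The members and lists were chosen with earlier results of these data known. Array values are given for called members, for the smallest p and the lowest fold change of each particle, and for Psmb5 to Psmb10, Psme1, Psme2, Psme4, Psmg1, Pomp, Psmf1 and Nfe2l1; for other lists, up to 4 genes with the smallest p are named. Array values or SDs of Psmc1, Psmd7, Psmd8, Psmd12, Nlrc5 and Tap1, and some further names, were added after their values were seen. Alternatives were other normalizations (quantile, cyclic loess, centring, level matching), a filter on level, the mean of probe sets, a replicate block, array weights, a trended robust prior and arrays left out. Tables and plots used Python 3.11.15, pandas 2.3.3 and matplotlib 3.10.9.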

Additional observations from a re-analysis of the deposited data

Results flagged for a closer look

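In 3 of 90 groups of 4 arrays examined (41 members with Psmg1, Pomp, Psmf1 and Nfe2l1, in each genotype), 1 array stood apart from the other 3 by Dixon's criterion, and chance gives about 4.5. Psme4 in Ts65Dn replicate 4 was at 9.17, with the others at 9.35 to 9.38. Psma7 in WT replicate 3 was at 11.13, with the others at 11.28 to 11.29. Psmb1 in WT replicate 3 was at 10.21, with the others at 9.95 to 9.99.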

How the results depend on the processing

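The 2 member calls held with arrays centred, among genes above the median level, with the mean of the probe sets of a gene, with a trended robust prior, and without WT replicate 1 or WT replicate 4. The number of members called was 0 with quantile normalization, cyclic loess, level matching, array weights, WT arrays 2 and 3 left out, and level matching with those 2 left out (this last one chosen after seeing the data). It was 3 with arrays centred, 6 at an adjusted p under 0.10, and 0 to 5 when 1 array was left out. Of all genes, 1049 were called, against 1 with quantile normalization, 1008 with arrays centred (951 higher and 57 lower, against 462 and 587), 135 with loess (117 and 18), 91 with level matching (74 and 17), 436 above the median level, 236 with array weights, 1 without WT arrays 2 and 3, 1 with level matching and those left out, 4961 at an adjusted p under 0.10, and 0 to 2865 when 1 array was left out. The members' median log2 fold change of 0.165 was 0.0584 with quantile normalization, 0.367 with arrays centred, 0.0342 with loess, 0.0354 with level matching, 0.0536 without WT arrays 2 and 3, 0.0551 with both, and 0.12 to 0.197 when 1 array was left out. Deviations from the group means correlated at 0.03, 0.01, 0.09 and 0.07 between same-numbered arrays of the groups. Between arrays of different number they ran from -0.12 to 0.09. Such low values cannot exclude that replicate numbers pair the arrays, and the reported fit used no pairing. With the replicate block 0 members and 0 genes were called, and the median stayed at 0.165. Log2 fold changes that turned sign were, without WT arrays 2 and 3, Psma2 -0.012, Psma3 -0.061, Psma4 -0.064, Psma6 -0.069, Psmb6 0.026, Psmb9 0.25, Psmb10 0.054, Psmc3 0.033, Psme3 -0.021. With level matching as well they were Psma1 -0.030, Psma2 -0.059, Psma3 -0.0070, Psma4 -0.089, Psma6 -0.041, Psmb6 0.060, Psmb9 0.11, Psmd3 -0.075, Psmd13 -0.057, Psme3 -0.16. With level matching alone they were Psma4 -0.063, Psmb1 -0.095, Psmb2 -0.013, Psmb3 -0.069, Psmc5 -0.062, Psmd4 -0.091, Psmd3 -0.13, Psmd13 -0.18, Psme2 -0.21, Psme3 -0.019. Under loess they were Psma3 -0.023, Psma4 -0.051, Psma7 -0.033, Psmb1 -0.12, Psmb2 -0.0037, Psmb3 -0.087, Psmb4 -0.0018, Psmc5 -0.085, Psmd4 -0.072, Psmd13 -0.079, Psme2 -0.040, Pomp -0.0051, Nfe2l1 -0.066. Under quantile normalization they were Psma4 -0.042, Psmb1 -0.071, Psmb3 -0.047, Psmc5 -0.014, Psmd4 -0.045, Psmd3 -0.013, Psmd13 -0.14, Psme2 -0.11, Nfe2l1 -0.014. With arrays centred they were Psmb5 0.061, Psmb6 0.20, Psmb9 0.16, Psmb10 0.17, Psmc3 0.18, and with array weights Psmb6 0.015, Psmb9 0.062, Psmb10 0.037, Psmc3 0.000996. When 1 array was left out, the ranges were Psmb1 -0.019 to 0.066, Psmb6 -0.066 to 0.038, Psmb9 -0.24 to 0.074, Psmb10 -0.10 to 0.089, Psmc3 -0.049 to 0.022, Psmc5 -0.014 to 0.043, Psmd4 -0.014 to 0.10. Psma5, Psmd1 and Psmd10 were called only without WT replicate 1, and Psmd5 and Psmd8 only without WT replicate 4; Psmc1 and Psmf1 were called only with arrays centred. None of the values that turned sign was called, and the cause was not tested. The number of arrays and the level of a gene limit the precision.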

Other observations

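A probe set annotated to both Psme2b and Psme2, which belonged to no comparison, was at 7.45, 7.20, 6.90 and 7.38 in Ts65Dn replicates 1 to 4 and 6.98, 6.63, 6.62 and 7.24 in WT replicates 1 to 4.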
